A study of Homo sapiens with 6 samples.

Results

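The NAP1-like family comprises 5 human genes, *NAP1L1*, *NAP1L2*, *NAP1L3*, *NAP1L4* and *NAP1L5*, which were taken by name from the 62710 rows analysed. The family was chosen by the values of *NAP1L3*, listed at 0 in parental and high in onvansertib-resistant H526 cells, so that *NAP1L3* is described here without a test. With a mean of 10 or more over the libraries, 3 of the 5 genes (*NAP1L1*, *NAP1L3* and *NAP1L4*) could enter a test, *NAP1L3* only through the group in which it is high. The other 4 genes entered through their family name. H526 is a human small cell lung cancer (SCLC) line, and onvansertib is an inhibitor of polo-like kinase 1, a kinase of mitosis. The resistant cells were derived from H526 by growth for more than 1 year in onvansertib raised from 10 to 75 nM. The parental cells were kept in RPMI-1640 with fetal bovine serum. RNA of both lines was extracted at 3 separate times, giving parental libraries 1, 2 and 3 and resistant libraries 7, 8 and 9. Whether a parental and a resistant library share a time is not stated. Neither separate cultures nor the number of resistant clones is stated, so the spread between libraries may be technical, and resistance, the presence of the drug and time in culture cannot be told apart.

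NAP1-like proteins are histone chaperones. They bind the dimer of histones H2A and H2B through an acidic surface, keep it from sticking to DNA, carry it into the nucleus and pass it to nucleosomes or take it off them. *NAP1L1* and *NAP1L4* are expressed in most tissues, whereas *NAP1L2*, *NAP1L3* and *NAP1L5* lack introns and are known mainly from the brain. *NAP1L5* is imprinted and expressed from the paternal allele.

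The values are gene counts normalized between libraries with DESeq2 by the authors. In each library the low values clustered at the worth of about 1 read, between 0.882 and 1.07, which corresponds to about 22.5 to 28.8 (in units of 1e6) reads per library. Only 48.5% to 59.6% of low values were whole multiples of it within 0.05 of a step, so the values could not be turned back into reads and tests were made on a log scale. Whether the normalization also held a factor for each gene, such as its length in each library, is not stated, and such a factor would enter the estimated reads and ratios between genes. A value of 3 reads, between 2.65 and 3.21, is what a gene listed at 0 could have reached, counting error only. *POU2F3*, the factor that defines the tuft cell-like subtype of SCLC, had values from 24511 to 27873 in all 6 libraries and was the 1 of 7 tuft cell markers that did not pass the test, while *NEUROD1* reached at most 5.49. Of the other tuft cell markers, *TRPM5*, *CHAT*, *SOX9* and *GFI1B* were higher in resistant cells, with log2 fold changes of 1.77, 1.72, 0.34 and 0.20, and *AVIL* and *ASCL2* lower, at -0.80 and -0.47. *YAP1*, the marker of a further subtype, was higher, from 48.9 ± 6.86 to 111 ± 16.1 (SD, n = 3). All 5 tested neuroendocrine markers were lower in resistant cells. These marker counts stand beside 37.7% of all tested genes that passed the test, 17.8% higher and 19.8% lower. Of 6 fibroblast markers 3 were tested and 2, *COL1A1* and *COL1A2*, were higher in resistant cells, while *COL3A1*, at -0.73 on the log2 scale, did not pass the test (adjusted p = 0.247 by limma). The list had a summed level of 144 to 192 in parental and 385 to 627 in resistant libraries, with *DCN* at most at 3.11 and *LUM* at most at 13.0. The 5 leukocyte markers summed to at most 18.1, and of 3 endothelial markers *VWF* was higher in resistant cells while *CDH5* was listed at 0 throughout. In such bulk libraries fewer cells of a type and less RNA per cell cannot be told apart, and the part of these markers in the results was not tested.

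The promoters of the 3 intronless genes are shown because these genes share their structure and yet only *NAP1L3* had a substantial value in any library. Each is 300 bases of the RefSeq sequence (GRCh38.p14), 250 before and 50 after the annotated start, written 5′ to 3′ on the gene's minus strand, with CpG dinucleotides in capitals. *NAP1L3* spans chrX:93673529-93673828, *NAP1L2* chrX:73214802-73215101 and *NAP1L5* chr4:88697780-88698079.
NAP1L3: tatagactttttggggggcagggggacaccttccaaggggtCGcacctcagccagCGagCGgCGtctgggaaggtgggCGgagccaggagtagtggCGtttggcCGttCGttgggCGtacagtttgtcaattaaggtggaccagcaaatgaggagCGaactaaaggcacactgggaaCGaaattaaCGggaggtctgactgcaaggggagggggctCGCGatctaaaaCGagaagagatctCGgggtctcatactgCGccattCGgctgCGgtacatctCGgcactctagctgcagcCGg
NAP1L2: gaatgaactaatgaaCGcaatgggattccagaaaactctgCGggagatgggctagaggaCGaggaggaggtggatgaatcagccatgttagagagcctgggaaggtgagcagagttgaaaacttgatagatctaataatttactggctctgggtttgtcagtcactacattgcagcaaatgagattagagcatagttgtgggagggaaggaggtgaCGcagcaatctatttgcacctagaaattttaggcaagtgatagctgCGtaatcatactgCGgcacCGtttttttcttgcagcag
NAP1L5: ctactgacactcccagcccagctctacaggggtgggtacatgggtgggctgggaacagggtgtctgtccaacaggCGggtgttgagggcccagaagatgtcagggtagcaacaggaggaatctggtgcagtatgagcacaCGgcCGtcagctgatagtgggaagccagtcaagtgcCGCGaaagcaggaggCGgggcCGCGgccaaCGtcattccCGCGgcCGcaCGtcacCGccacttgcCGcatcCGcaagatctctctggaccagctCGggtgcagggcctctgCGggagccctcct
The window of *NAP1L3* held 21 CpG dinucleotides, that of *NAP1L2* 7 and that of *NAP1L5* 18. The median over 35114 promoter windows was 14, and 60.5% of windows had fewer than *NAP1L3*. A GC box (GGGCGG on either strand) was found in the window of *NAP1L3*, in that of *NAP1L1* and in 3 of the 4 of *NAP1L4*, and not in those of *NAP1L2* or *NAP1L5*. The same motif occurs in 45.0% of all windows. A CCAAT box (CCAAT) was found, among the 5 genes, only in windows of *NAP1L4*, and occurs in 34.6% of all windows. The letters of a TATA box (TATAAA), an E-box (CACGTG) and a cAMP response element (TGACGTCA) were in none of the windows of the 5 genes, and occur in 11.5%, 7.26% and 1.85% of all windows. *NAP1L1* had 30 CpG dinucleotides in its window. *NAP1L4*, with 4 annotated starts, had between 11 and 43. The part of these sequences in the values was not tested.

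Of the 5 family members, 2 had mean values above 100 in parental H526 cells and 3 in resistant cells. *NAP1L3* (ENSG00000186310, GRCh38 chromosome X, 93670930 to 93673578, minus strand, 1 exon) was listed at 0 in parental libraries 1, 2 and 3. It had a normalized value of 404 in resistant library 7, 391 in library 8 and 444 in library 9, or 413 ± 27.3 (SD, n = 3). All 3 resistant libraries were thus high and close to each other, at an estimated 378 to 415 reads each, and the groups did not overlap. A fold change is not given against a group listed at 0. A gene at 0 in every parental library passed the filter only through its resistant values, so weaker genes are left out here. Of the 16347 tested genes, 10 were listed at 0 in every parental library. *NAP1L3* was the 1 gene among them with more than 100 in all 3 resistant libraries, and 0.0122% of tested genes combined a parental listing at 0 with a resistant mean of at least 100. These are the values by which the family was chosen, and nothing is read from that share. The next gene by resistant mean, *H2AC19*, was at 0, 0 and 546 in resistant libraries 7, 8 and 9 and is a histone gene with near-identical copies, so its value is uncertain. *ZNF541* (34.8 ± 4.67, SD, n = 3), the read-through gene *C8orf44-SGK3* (34.5 ± 12.5), *ANKRD36BP1* (6.57, 90.6 and 0) and *AKAP7* (31.8 ± 12.5) followed. The value of *NAP1L3* in resistant cells was not extreme among expressed genes, and 46.7% of the tested genes had a lower resistant mean.

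**Figure D1:**
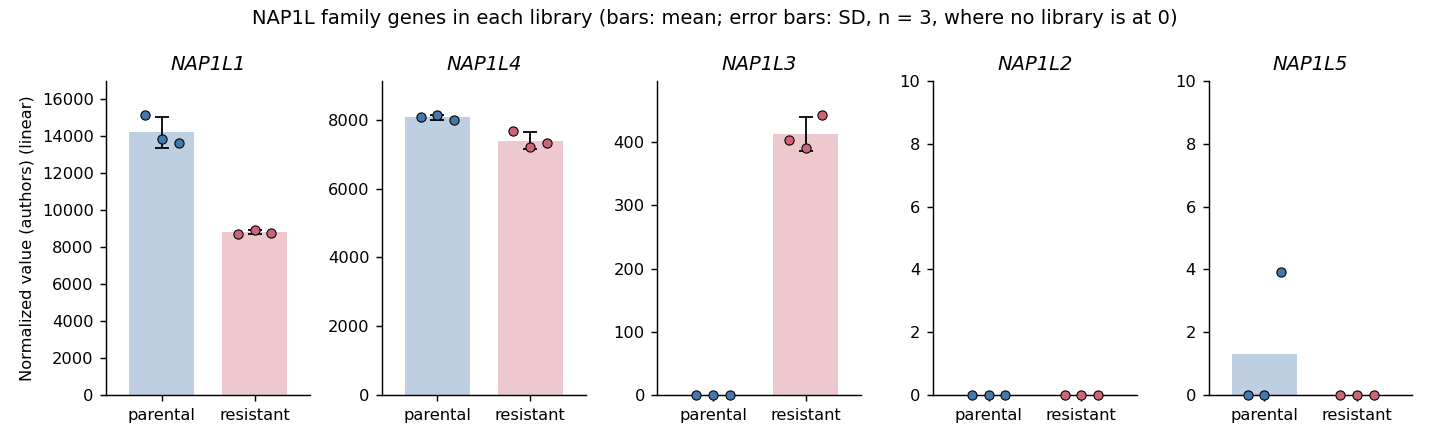
Normalized values (linear axes, each starting at 0) of the 5 NAP1L genes, with 1 point per library, bars for the mean of each group and error bars for the SD (n = 3) in groups with no library at 0. *NAP1L1* fell in resistant cells, *NAP1L4* lay slightly lower, *NAP1L3* was at 0 in every parental library and ranged from 391 to 444 in resistant ones, and *NAP1L2* and *NAP1L5* were at or near 0 throughout.

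The other 2 brain-associated members had no comparable value. *NAP1L2* (ENSG00000186462, chromosome X, 73212299 to 73214851, minus strand, 1 exon) was listed at 0 in all 6 libraries. *NAP1L5* (ENSG00000177432, chromosome 4, 88695913 to 88697829, minus strand, 1 exon) was listed at 0 in 5 libraries and at 3.93, about 4 reads, in parental library 3. At this depth neither gene could be compared between the groups. *NAP1L5* lies inside *HERC3*, a ubiquitin ligase gene on the other strand, which was annotated under 2 identifiers. The first of these (ENSG00000138641) had values of 479 ± 54.0 in parental and 679 ± 152 in resistant cells (SD, n = 3), and its call as higher (adjusted p = 0.0362 by limma) was lost without resistant library 8 (adjusted p = 0.134 by limma) and without any of parental libraries 1 and 3 and resistant library 9. The second (ENSG00000287542) rose from 47.0 ± 14.9 to 110 ± 24.2 (SD, n = 3; log2 fold change 1.23, adjusted p = 0.0072 by limma) and kept its call under all 13 alternatives. The library kit is not described as keeping the strand, so reads of overlapping genes cannot be told apart by strand. On X, the tested genes nearest to *NAP1L2* were *FAM226B*, at 40.9 ± 14.4 and 57.0 ± 9.48 (SD, n = 3), and *CHIC1*, at 120 ± 2.61 in parental and 170 ± 27.0 in resistant cells (SD, n = 3).

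*NAP1L1* (ENSG00000187109, chromosome 12, 76036585 to 76084735, minus strand, 15 exons), the most studied member, fell in resistant cells. Its normalized values were 15165, 13828 and 13633 in parental libraries 1, 2 and 3 and 8711, 8916 and 8761 in resistant libraries 7, 8 and 9. Every parental library was above every resistant one, and the resistant mean was 61.9% of the parental mean. On log2(value + 1), the scale of all tests here, the log2 fold change was -0.69 (standard error 0.06, 95% confidence interval -0.82 to -0.56, Benjamini-Hochberg adjusted p = 1.9e-05 by limma over 16347 genes). Negative values are lower in resistant cells. Of all genes tested, 37.7% had an adjusted p under 0.05, 17.8% higher and 19.8% lower, and in 49.9% the groups did not overlap (24.0% higher, 25.9% lower).

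*NAP1L4* (ENSG00000205531, chromosome 11, 2944431 to 2992377, minus strand, 16 exons), the other broadly expressed member, did not pass the test. The parental values of *NAP1L4* were 8079, 8158 and 8002 and the resistant values 7671, 7205 and 7332, in the order of the library numbers. The groups did not overlap, but the resistant mean was only 8.38% below the parental mean. Its log2 fold change was -0.13 (standard error 0.06, 95% confidence interval -0.25 to -0.0036, adjusted p = 0.0976 by limma). The value of *NAP1L1* divided by that of *NAP1L4* in the same library, which does not depend on a scaling factor shared by all genes of a library, was 1.88, 1.70 and 1.70 in parental and 1.14, 1.24 and 1.19 in resistant libraries. This ratio was below the parental range in every resistant library, a description without a test of its own.

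Per kilobase of the canonical transcript, *NAP1L4* had a level of 3280 ± 31.6 in parental and 3005 ± 97.9 in resistant cells, *NAP1L1* one of 1080 ± 63.4 and 668 ± 8.12, and *NAP1L3* one of 156 ± 10.3 in resistant cells (SD, n = 3). The order of *NAP1L1* and *NAP1L4* rests on the length taken for *NAP1L1*, whose canonical transcript has 13159 bases against 2463 in *NAP1L4*. Per kilobase of coding length, 1173 and 1125 bases, the level of *NAP1L1* was 12113 ± 711 and that of *NAP1L4* 7182 ± 69.2 in parental cells (SD, n = 3). *NAP1L3* stayed the lowest of the 3 on either length. It made up 4.07% ± 0.28 of the summed level of the 5 genes per kilobase of canonical transcript in resistant cells, and 1.90% ± 0.13 per kilobase of coding length (SD, n = 3). The summed level in resistant cells was 87.8% of that in parental cells with the canonical length and 74.4% with the coding length.

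The members shared no stretch of 50 bases with each other. None of the 2600 stretches of 50 bases in the canonical *NAP1L3* transcript occurred in a transcript of any other gene. Nor did any of the canonical *NAP1L2* and *NAP1L5* transcripts. Transcripts were compared only as read 5′ to 3′, so stretches shared with transcripts of the opposite strand were not looked for. In *NAP1L1* 1.73% and in *NAP1L4* 1.74% of such stretches occurred in another gene, and for *NAP1L4* that gene was its processed copy *NAP1L4P1*. Of 8 processed copies of NAP1L genes, 6 were listed at 0 in all libraries. *NAP1L4P1* was between 0 and 8.33 and *NAP1L1P1* at most at 1.07.

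The neighbour of *NAP1L3* followed the same pattern at a much lower level. *FAM133A*, whose start lies 0.435 kb from that of *NAP1L3* and which is read in the opposite direction, was at 0 in each parental library and at 8.45, 13.6 and 14.2 in resistant libraries 7, 8 and 9, about 8.04 to 13.3 reads. Its mean over the 6 libraries, 6.04, was under the minimum for a test. Within 3 Mb on either side of *NAP1L3*, 44 genes are annotated, 4 of them protein-coding. Of these 44, 35 were listed at 0 in all 6 libraries and 9 had a value in any library. *NAP1L3* and *FAM133A* were the 2 whose resistant values all lay above the parental values. The same held for 24.0% of all genes tested. Since *NAP1L3* was the gene by which the family was chosen, nothing is read from this count. The nearest tested gene on one side was the processed copy *AP2B1P1*, at 15.4 ± 4.21 in parental and 11.6 ± 2.98 in resistant cells (SD, n = 3). On the other side, 3014 kb away by gene start, *DIAPH2*, a formin that organizes actin, rose from 298 ± 12.1 to 614 ± 12.5 (SD, n = 3). The log2 fold change was 1.04, with an adjusted p of 3.6e-05 by limma. Over the 10 tested genes nearest to *NAP1L3*, which reached up to 8.58 Mb away, 4 were higher and 0 lower with an adjusted p under 0.05 by limma, with a median log2 fold change of 0.25. Of all genes tested, 37.7% passed that threshold, 17.8% higher and 19.8% lower. Of 528 tested genes on X, 101 were higher and 95 lower, and their median was 0.02.

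**Figure D2:**
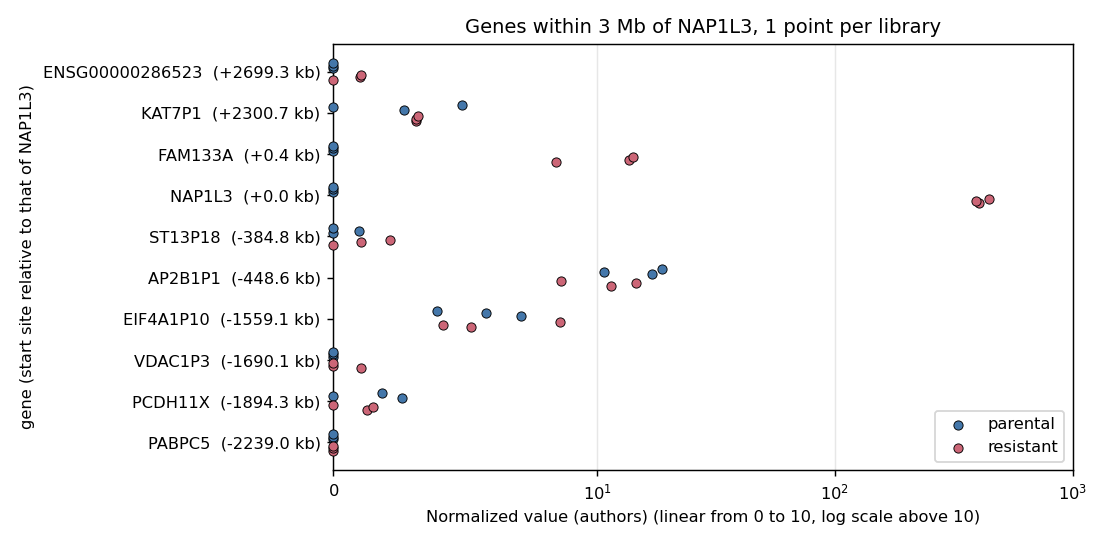
Normalized values in each library (1 point per library, linear from 0 to 10 and logarithmic above) of the genes within 3 Mb of *NAP1L3* that are protein-coding or had a value above 0, ordered by the distance of their start from that of *NAP1L3* in kb. *NAP1L3* and the adjacent *FAM133A* were at 0 in parental cells and above 0 in all resistant libraries, while the values of the other genes overlapped between the groups.

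*NAP1L1* fell together with most genes around it. Of the 10 tested genes nearest to it on chromosome 12, 8 were lower and 1 was higher in resistant cells, with a median log2 fold change of -0.50. Over all genes tested, 19.8% were lower and 17.8% higher. On the whole chromosome 378 of 835 tested genes were lower and 67 higher, with a median of -0.34. *PHLDA1*, the tested gene next to *NAP1L1* and an early response gene, was the exception and rose from 68.0 ± 11.9 to 150 ± 20.0 (SD, n = 3; log2 fold change 1.13, adjusted p = 0.0019 by limma). *BBS10*, the nearest tested gene on the other side and a part of the chaperonin complex of the cilium, was at 370 ± 38.3 and 340 ± 32.1 (SD, n = 3). *OSBPL8*, a lipid transfer protein gene, and *CSRP2*, a LIM domain gene, had log2 fold changes of -0.90 and -0.94, chosen after their values were seen. The fold change of *NAP1L1* thus lay within the range of its neighbours, from -1.07 to 1.13. The number of gene copies was not measured, and its part in the fall of *NAP1L1* was not tested.

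The genes around *NAP1L4*, in an imprinted domain of chromosome 11, moved in both directions. Of 10 tested genes, the 5 on each side, 4 were higher and 3 lower. Their median log2 fold change was 0.39, and the median was 0.0066 with 10 genes on each side. Calls in both directions were also common over all genes tested, with 17.8% higher and 19.8% lower. *PHLDA2*, an imprinted growth regulator next to *NAP1L4*, rose from 20.3 ± 9.52 to 158 ± 29.8 (SD, n = 3). The log2 fold change was 2.99, with an adjusted p of 0.00013 by limma. On the other side *CARS1*, which charges tRNA with cysteine, went from 1618 ± 145 to 1361 ± 68.8 (SD, n = 3). Its log2 fold change of -0.25 passed the test (adjusted p = 0.0437 by limma), and the call was lost without any of 5 libraries, all but parental library 1, with adjusted p from 0.059 to 0.17. The call was also lost without the filter, without the trend and with quantile normalization (adjusted p from 0.066 to 0.10 by limma).

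**Figure D3:**
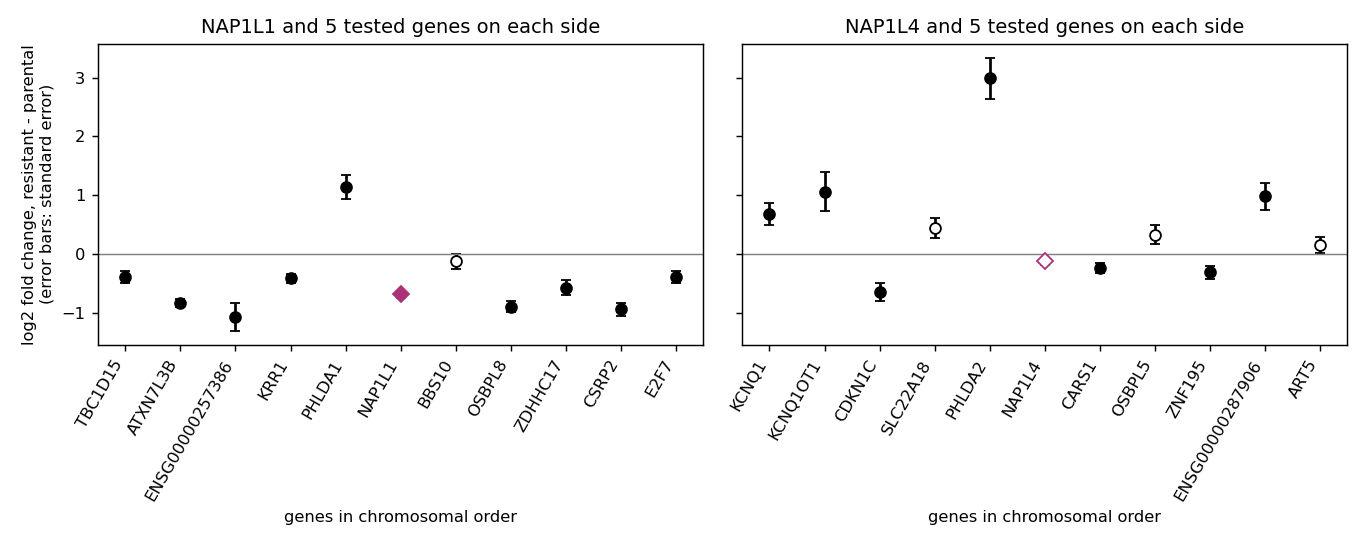
Log2 fold change between resistant and parental cells (values above 0 are higher in resistant cells, error bars show the standard error) of *NAP1L1* and *NAP1L4* (diamonds) and of the 5 tested genes on each side in chromosomal order (circles), filled where the adjusted p was under 0.05 by limma. Most genes around *NAP1L1* lay below 0 like *NAP1L1* itself, whereas those around *NAP1L4* lay on both sides of 0.

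Other genes had profiles over the 6 libraries that were close to those of the members, as measured by Pearson's r of log2(value + 1). The points share libraries and fall into 2 groups, so r is high for many genes and is given as a description. For *NAP1L3* the closest were *UBE2L6*, *NBL1* and *ZNF541*, each with r of about 0.999 or above, and 159 genes had r above 0.99. *UBE2L6*, an enzyme that conjugates ISG15, went from 52.8 ± 2.56 to 395 ± 15.1 and *NBL1*, a secreted antagonist of BMP, from 30.8 ± 0.77 to 126 ± 5.70 (SD, n = 3). For *NAP1L1* they were *RP9P*, *GIT1* and *ABCB8*, and for *NAP1L4* *CNOT7*, *JAKMIP2-AS1* and *TPRN*, with r of 0.998 for *CNOT7*.

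Relatives of the family and its partners were taken as lists. Of 15 relatives by the NAP domain, copies included, 5 were tested and 1, *TSPYL1*, fell, from 3781 ± 27.5 to 2799 ± 48.9 (SD, n = 3; log2 fold change -0.43, adjusted p = 0.00029 by limma). The share called, 20%, was below the 37.7% of all genes called and near the 19.8% called lower. *SET*, a histone chaperone and inhibitor of protein phosphatase 2A, was at -0.17 on the log2 scale (adjusted p = 0.0833 by limma) and passed the test without parental library 2 (-0.23, adjusted p = 0.0255 by limma). Of the list, 8 genes were at 0 in all 6 libraries.

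Among 13 other chaperones and handlers of H2A and H2B, all tested, 3 were higher and 5 lower (61.5%, against 37.7% of all genes), and their median log2 fold change was -0.07 against -0.00086 over all genes tested. The 2 subunits of FACT, which opens nucleosomes ahead of polymerases, moved apart. *SUPT16H* rose from 12249 ± 661 to 18192 ± 975 (SD, n = 3; log2 fold change 0.57, adjusted p = 0.0001 by limma), while *SSRP1* was at -0.21 (adjusted p = 0.0185 by limma). The call of *SSRP1* was lost without any of parental library 3 and resistant libraries 8 and 9 (adjusted p from 0.053 to 0.056 by limma). It was also lost without the trend (adjusted p = 0.0798 by limma) and with quantile normalization (-0.06). *NPM1*, the nucleolar chaperone nucleophosmin, fell from 13226 ± 743 to 6160 ± 369 and *ANP32B*, a small acidic chaperone, from 3184 ± 69.5 to 1460 ± 57.3 (SD, n = 3), log2 fold changes of -1.10 and -1.12. *SUPT6H* and *ANP32A* were also higher, at 0.38 and 0.24, and the call of *ANP32A* was lost without the trend (adjusted p = 0.0543 by limma). The lower calls of *ANP32E* and *VPS72*, which handle the variant H2A.Z, at -0.24 each, were lost without any of 4 and of 3 libraries in turn. Both calls were also lost without the trend (adjusted p = 0.0902 and 0.0751 by limma), and that of *ANP32E* with quantile normalization (-0.11). *IPO9*, an importin that carries H2A and H2B, was at -0.06 (adjusted p = 0.45 by limma).

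Of 21 chaperones of H3 and H4, 3 were higher and 2 lower, or 23.8% against the 37.7% of all genes. *CHAF1B*, a subunit of the replication chaperone CAF-1, rose from 1772 ± 90.2 to 3624 ± 217 (SD, n = 3; log2 fold change 1.03, adjusted p = 5.3e-06 by limma), while the other large subunit, *CHAF1A*, was at 1834 ± 57.9 and 1875 ± 144. *ATRX* and *TONSL* were higher, at 0.42 and 0.27, and *HIRA* and *MCM2* lower, at -0.28 and -0.21. The call of *MCM2* was lost without the trend (adjusted p = 0.0572 by limma) and with quantile normalization (-0.06, adjusted p = 0.363 by limma). *NASP*, *ASF1A*, *ASF1B*, *HJURP* and *DNAJC9* did not pass the test, with log2 fold changes from -0.08 to 0.17. Of 10 tested histone variant genes, 8 were lower and 0 higher, a share of 80% beside 19.8% over all genes. The largest fall was that of the linker histone gene *H1-10*, from 20869 ± 848 to 12237 ± 727 (SD, n = 3; log2 fold change -0.77), followed by *MACROH2A2* at -0.54 and *H2AX* at -0.44. *MACROH2A1*, *H2AZ2*, *H2AZ1* and *H3-3B* had log2 fold changes between -0.40 and -0.30, and *H3-3A* and *CENPA* did not pass the test.

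NAP1 proteins are modified by polyglutamylation, the addition of glutamate side chains, and *TTLL4* is the enzyme best known to act on them. It did not pass the test, with 875 ± 89.1 in parental and 781 ± 177 in resistant cells (SD, n = 3; log2 fold change -0.19, adjusted p = 0.38 by limma). Of 9 tested genes that add or remove glutamates, 3 were higher and 0 lower, a share of 33.3% that is near the 37.7% of all genes. *TTLL1* rose from 91.2 ± 9.15 to 162 ± 21.6 and *TTLL7* from 782 ± 58.4 to 1081 ± 68.6 (SD, n = 3). *TTLL5* was at 0.25 (adjusted p = 0.04 by limma) and lost its call without any single library but parental library 1. It also lost its call without the filter and without the trend (adjusted p = 0.061 and 0.088 by limma).

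**Figure D4:**
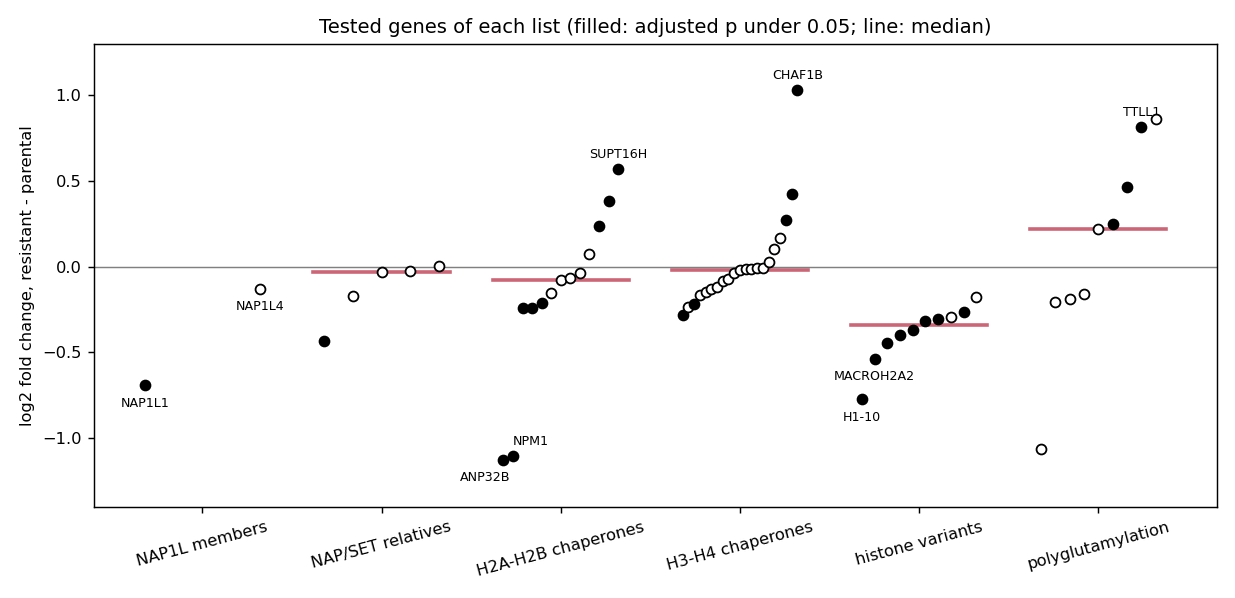
Log2 fold change between resistant and parental cells of the tested genes of each list (1 point per gene, filled where the adjusted p was under 0.05 by limma, lines for list medians), with *NAP1L1* and *NAP1L4* at the left and *NAP1L3* left out since its parental values were 0. The 10 histone variant genes all lay below 0, and the H2A-H2B chaperones lay on both sides of it.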

How the data were processed

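RNA of 3 parental and 3 resistant H526 libraries was sequenced. The authors trimmed reads with Trimmomatic 0.38, aligned and quantified them with RSEM 1.3.1 on GRCh38 with Gencode v43, and deposited gene counts normalized with DESeq2 (1.30.0 per the labels), a signal that is never negative, without a filter and with replicates kept apart.

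Of 62757 rows, 47 second copies of pseudoautosomal genes were left out. Symbols, positions and transcripts came from Gencode v44 (62639 rows matched without the version) and promoters from RefSeq. The test was that of limma 3.58.1 in R 4.3.3 (lmFit, eBayes with trend, condition as the only term) on log2(value + 1) for genes averaging 10 or more, with Benjamini-Hochberg adjustment and a threshold of 0.05. With 3 libraries against 3, exact permutation tests can reach no p under 0.10, so none is printed. The fit was run on simulated data with 200 of 16347 genes changed, far fewer than the 6161 called here. It recovered 162 of them, and 5.26% of its 171 calls were false. With so few changed genes, this does not give the share of false calls in the real data. Neighbours were the 5 tested genes on each side by gene start.

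Named were the members, their processed copies, overlapping and nearest tested genes, up to 4 called genes per direction and list, a fixed set of chaperones, and genes with the closest profile. The members and lists were chosen with earlier results of these data known. Alternatives changed the pseudocount (0.1 or 10), the filter (none, or a mean of 50), the scaling (trimmed mean of M values, or quantile normalization), the trend, the neighbours (10 on each side) and the lengths, and left out each library. Figures used matplotlib 3.10.9 in Python 3.11.15. Some listed genes are counted with their lists and not reported singly here.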

Additional observations from a re-analysis of the deposited data

How the results depend on the processing

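The fall of *NAP1L1* passed the test under all 13 alternatives, with log2 fold changes from -0.72 to -0.64 when 1 library was left out and -0.55 with quantile normalization, and *NAP1L4* passed it under none. *NAP1L3* differed by 398 to 424 when 1 library was left out. The number of genes called over the whole table was 4784 to 5618 without 1 library, against 6161. Coding length was an alternative chosen after seeing the data. It gave a summed family level of 74.4% of the parental one, and undivided values gave 74.5%. The H2A-H2B chaperones called were 4 without the trend and 5 to 8 without 1 library, 5 of them without resistant library 9. The polyglutamylation genes called were 5 with quantile normalization, and the relatives called were 1 to 2 without 1 library, 2 of them without parental library 2. The median of the neighbours moved from 0.38 to 0.19 for *NAP1L2* with a minimum mean of 50, from -0.50 to -0.36 for *NAP1L1* and from 0.25 to 0.57 for *NAP1L3* without the filter, and from 0.41 to 0.32 for *NAP1L5* with quantile normalization. With 10 genes on each side it was 0.0066 for *NAP1L4* and 0.24 for *NAP1L2*, and it ranged from 0.31 to 0.42 for *NAP1L5* without 1 library. Among 51 named genes that are no members, 7 of 660 values changed sign, none of a called gene: *NASP* (0.11 with quantile normalization, -0.077 to 0.026 without 1 library), *ASF1B* (0.029 with quantile normalization, -0.044 to 0.0070 without 1 library), *CHAF1A* (-0.027 to 0.084 without 1 library) and *TTLL4* (-0.33 to 0.0045 without 1 library). A further 54 lost and 2 gained their call. The cause was not tested. The paper calls the parental and resistant cells matched, but the labels tie no parental library to a resistant one. A pairing by extraction time may exist, and no paired analysis was made. Depth limits *NAP1L2*, *NAP1L5* and *FAM133A*, which rest on at most 13.3 reads per library.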
